A study of Mus musculus with 8 samples.

Results

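The genes for matrix, secreted and surface proteins of the hair follicle bulge, *Postn*, *Aspn*, *Angptl7*, *Ctgf*, *Col6a1*, *Col8a2*, *Col18a1*, *Cd34*, *Smoc1* and *Abi3bp*, were followed in mouse epidermis. They are 10 of the 19593 genes listed in any table of the series. The genes were chosen by name because several of them led the wells of the lower follicle in the single-cell data, so their single-cell levels are given as a description, without a test. The bulk comparisons are tested, although the genes were chosen with earlier results of these data known. In the names below, CPM is counts or transcripts scaled to a total of 1000000, and a well is a single sorted cell.

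The epidermis came from adult C57BL/6 *Troy*-EGFP-IRES-CreERT2 mice, in which the cassette replaces the coding region of *Troy* (*Tnfrsf19*), a receptor of the tumor necrosis factor receptor family, so EGFP reports the *Troy* promoter. Bulk mRNA was taken from 2 mice, each giving 3 libraries: all viable (DAPI-) cells, ITGA6bright *Troy*-EGFP+ cells and ITGA6bright *Troy*-EGFP- cells, ITGA6 being an integrin of basal keratinocytes. Single cells were sequenced on 6 plates, 4 from *Troy*-EGFP mice (EGFP+ and EGFP- cells, here "untraced") and 2 from mice that carried *Troy*-EGFP-IRES-CreERT2 and also Rosa26-LSL-tdTomato, homozygous for both alleles and given tamoxifen, in which CreERT2 turns on tdTomato in *Troy*-expressing cells and their descendants (tdTomato+ and tdTomato- cells, here "traced"). The tables do not say through which gate a well was sorted, and by the study's methods the traced single cells came from males while both sexes were used elsewhere, so genotype, tamoxifen, gates, sex and plate cannot be told apart between traced and untraced wells.

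The bulge is the lower permanent part of the follicle in resting skin and houses stem cells for new follicles, which are known for the surface sialomucin CD34. Its cells lie on a basement membrane to which they themselves add collagens and secreted proteins. Keratinocytes around these cells, in the isthmus and infundibulum above and the hair germ below, use other sets of genes, which is how single-cell profiles separate them.

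Wells were kept when they held at least 1000 transcripts without spike-in and mitochondrial rows, which left 1109 of 2304 wells, 680 untraced and 429 traced, with a median of 2903 transcripts and 1222 genes. Untraced replicate 1 stands apart, with 71 wells kept and a median of 1676 transcripts against 129 to 262 wells and 2232 to 3267 transcripts on the other plates. All plates use the same 384 well barcodes, and 0 kept wells shared identical values. The wells were clustered with the 10 genes left out. A class was named only from markers outside the 10, and a cluster whose markers gave no name is called by its leading gene. The classes held 206 lower follicle-like, 302 interfollicular basal-like, 164 committed interfollicular-like and 80 upper follicle-like wells, 150 unnamed wells led by *Akr1c18*, and 207 wells of clusters removed by the study's own rule, T cell and Langerhans clusters among them.

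The sequences shown first are the promoters, because several of the genes appear in the same wells. RefSeq windows (build GRCm38.p6) of 250 bases before to 50 bases after a start were at hand for 7 of the 10 genes, in 9 windows, and for all but *Ctgf*, *Smoc1* and *Abi3bp*. The windows of *Cd34* (chr1:194938571-194938870, + strand), *Postn* (chr3:54360857-54361156, + strand), *Angptl7* (chr4:148500413-148500712, - strand) and *Col8a2* (chr4:126286544-126286843, + strand) stand for genes found in the same wells (*Postn* has another window, at chr3:54359017-54359316), and that of *Aspn* (chr13:49544193-49544492, + strand) for a gene found with *Postn* but with its highest mean level in another class. Capitals mark any of the 7 motifs searched on both strands: CATTCC for TEAD factors, CAGAC for SMAD factors, ACAATG for SOX factors, TAATTA for LIM homeobox factors, GGAAA for NFAT factors, TATAAA of the core promoter, and TGACTCA for AP-1. No motif contains another. Each line reads 5′ to 3′ on the strand of its gene.
Cd34: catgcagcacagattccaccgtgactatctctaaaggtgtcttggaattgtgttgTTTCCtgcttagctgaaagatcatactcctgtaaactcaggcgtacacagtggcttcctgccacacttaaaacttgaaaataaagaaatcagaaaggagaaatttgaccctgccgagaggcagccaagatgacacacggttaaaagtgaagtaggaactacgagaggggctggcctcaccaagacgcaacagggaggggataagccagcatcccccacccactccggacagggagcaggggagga
Postn: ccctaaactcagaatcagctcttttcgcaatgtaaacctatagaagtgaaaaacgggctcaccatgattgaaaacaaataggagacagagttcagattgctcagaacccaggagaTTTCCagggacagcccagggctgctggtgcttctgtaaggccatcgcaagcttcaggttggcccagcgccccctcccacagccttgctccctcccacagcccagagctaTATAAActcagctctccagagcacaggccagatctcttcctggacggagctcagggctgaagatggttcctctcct
Angptl7: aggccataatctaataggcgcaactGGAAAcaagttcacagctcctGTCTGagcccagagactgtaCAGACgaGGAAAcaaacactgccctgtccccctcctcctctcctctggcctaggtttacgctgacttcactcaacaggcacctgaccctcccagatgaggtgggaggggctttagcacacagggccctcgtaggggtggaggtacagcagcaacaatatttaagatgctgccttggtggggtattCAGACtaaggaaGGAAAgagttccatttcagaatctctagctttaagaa
Col8a2: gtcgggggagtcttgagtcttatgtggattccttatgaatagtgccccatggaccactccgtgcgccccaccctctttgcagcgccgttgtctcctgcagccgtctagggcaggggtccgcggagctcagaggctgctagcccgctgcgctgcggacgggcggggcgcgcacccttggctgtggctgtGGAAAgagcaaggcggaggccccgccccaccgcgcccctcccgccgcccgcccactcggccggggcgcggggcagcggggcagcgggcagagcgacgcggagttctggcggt
Aspn: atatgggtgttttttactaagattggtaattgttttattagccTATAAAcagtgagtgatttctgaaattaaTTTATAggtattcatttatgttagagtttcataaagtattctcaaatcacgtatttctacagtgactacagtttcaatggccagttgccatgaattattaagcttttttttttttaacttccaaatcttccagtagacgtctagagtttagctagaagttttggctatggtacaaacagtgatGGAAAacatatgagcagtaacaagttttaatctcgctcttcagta

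GGAAA lay in a window of 5 genes, *Cd34*, *Postn*, *Angptl7*, *Col8a2* and *Aspn*, and in 61.3% of all 32851 windows. CAGAC lay in windows of *Angptl7*, *Col18a1* and, in the window not printed, *Postn* (49.6% of all windows). TATAAA was present for *Postn*, 26 bases before the start, and for *Aspn* (13.6% of all windows). CATTCC was present for *Col18a1* (14.7%) and TGACTCA for *Col6a1* (5.20%), and no window of the 7 genes held ACAATG (12.6%) or TAATTA (5.29%). The G and C content of the printed windows ran from 31% for *Aspn* to 71.7% for *Col8a2*, against a median of 52.7% over all windows.

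Over all kept wells, *Postn*, which encodes the matricellular protein periostin, was found in more wells than any other of the 10, 300 of 1109 (27.1%). Its level was 670, 1391, 599 and 926 CPM in untraced replicates 1 to 4 and 456 and 490 CPM in traced replicates 1 and 2. All 4 untraced mice were above both traced mice. Such differences were not tested, here or for the other genes below, and the share of all genes that separate this way was not counted. *Cd34* was found in 222 wells, at 201, 291, 262 and 366 CPM in the untraced mice and 272 and 267 CPM in the traced mice. For *Cd34* the traced mice lay within the range of the untraced mice. *Ctgf*, a secreted matricellular protein of the CCN family, was found in 173 wells (15.6%), at 104, 200, 86.8 and 162 CPM in untraced and 242 and 307 CPM in traced mice, so that here the traced mice were the higher.

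The collagen chains were present in similar numbers of wells. *Col18a1*, whose product is a basement membrane collagen that yields endostatin, was found in 147 wells (13.3%) and ran from 50.2 to 93.3 CPM over the 6 mice. *Col6a1*, a chain of the microfibril-forming collagen VI, was found in 143 wells (12.9%) and in only 1 of the 71 wells of untraced replicate 1. *Col8a2*, a chain of the short-chain collagen VIII, was found in 120 wells (10.8%), at 67.5 ± 20.7 CPM in untraced (SD, n = 4) and 36.0 ± 3.57 CPM in traced mice (SD, n = 2). *Angptl7*, a secreted angiopoietin-like protein, was found in 142 wells (12.8%) and ran from 90.7 to 241 CPM.

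The other 3 genes were rarer. *Abi3bp*, a secreted matrix protein that binds ABI3, was found in 82 wells (7.39%), at 51.9, 35.7, 6.47 and 26.6 CPM in the untraced mice and 39.7 and 84.9 CPM in the traced mice, which overlap. *Aspn*, the small leucine-rich proteoglycan asporin, was found in 76 wells (6.85%), at 123, 209, 72.5 and 53.2 CPM in the untraced and 19.3 and 16.7 CPM in the traced mice, without overlap. *Smoc1*, a SPARC-related calcium-binding protein of basement membranes, was found in 36 wells (3.25%), at 22.9 and 18.02 CPM in traced and 0, 0, 6.47 and 12.8 CPM in untraced mice. The 2 untraced plates without *Smoc1* were those with the fewest wells, 71 and 129. Most detections were low: a well with the gene held a median of 1 molecular barcode for *Col6a1*, *Col8a2*, *Col18a1*, *Smoc1* and *Abi3bp*, against 4 for *Cd34* and 5 for *Postn*, and a single well reached 100 barcodes of *Postn*.

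**Figure D1:**
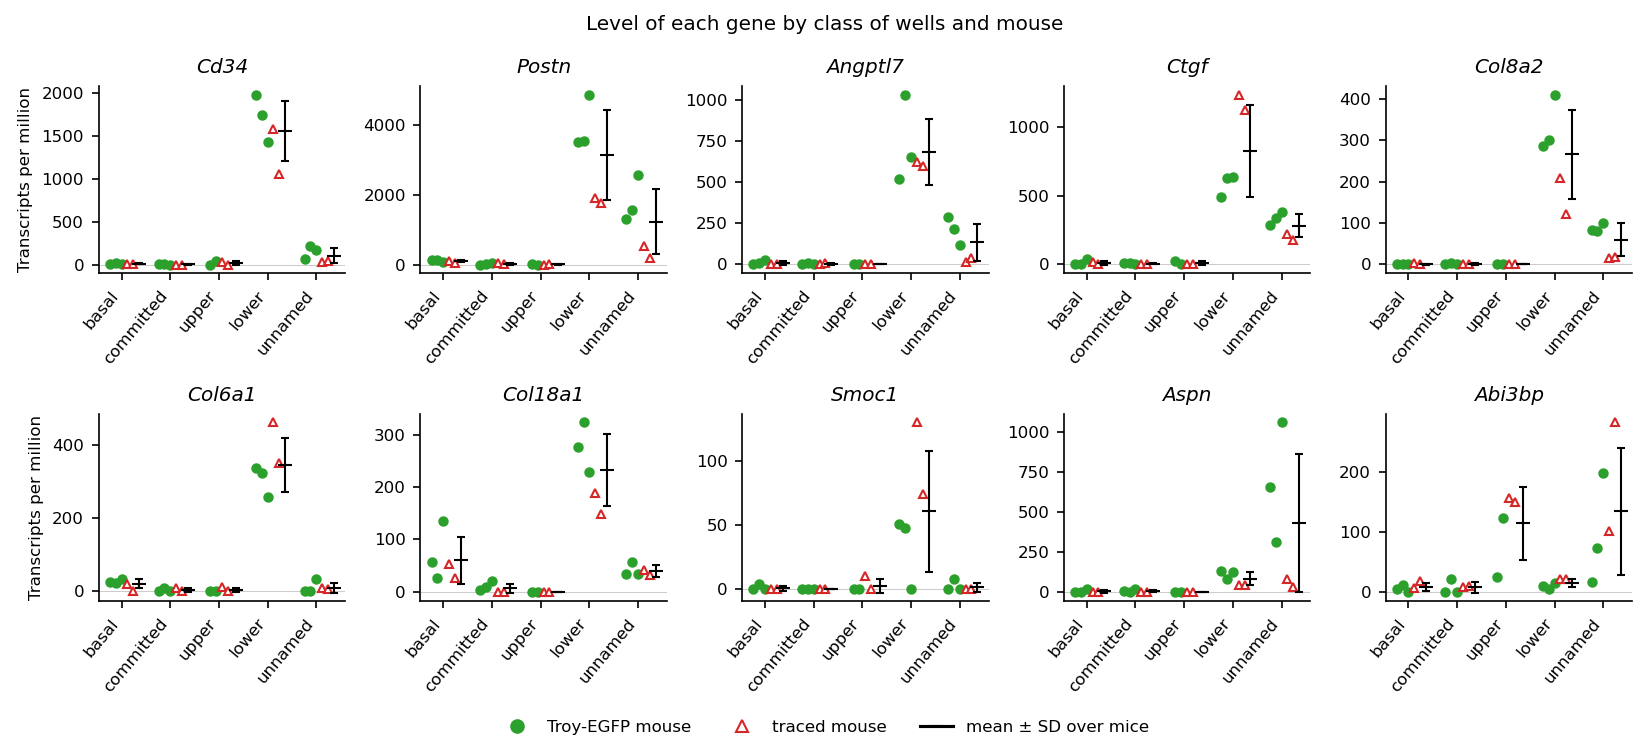
Level of each of the 10 genes (CPM, vertical axes) in 5 classes of wells, per mouse with at least 10 wells of the class: green dots are *Troy*-EGFP mice, red open triangles traced mice, black marks the mean and bars the SD. *Cd34* lies between 1056 and 1981 CPM in the lower follicle-like wells, and *Aspn* and *Abi3bp* have their highest mean in the unnamed wells led by *Akr1c18*.

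By class, 8 of the 10 genes had their highest mean level in the lower follicle-like wells, a class named from a list of follicle markers such as *Lhx2*, *Lgr5* and *Sox9*. *Cd34* stood at 1557 ± 346 CPM there (SD, n = 5 mice, here and for the classes below except the upper follicle, n = 4), against 105 ± 84.6 in the unnamed, 18.1 ± 21.2 in the upper follicle-like, 9.65 ± 5.65 in the basal-like and 3.37 ± 4.62 CPM in the committed wells. The lower follicle-like range of *Cd34*, 1056 to 1981 CPM, did not meet that of any other class. The ranges of the upper follicle-like, basal-like and committed wells, all between 0 and 41.0 CPM, overlapped. *Postn* was more widely spread, at 3135 ± 1291 CPM in the lower follicle-like, 1241 ± 926 CPM in the unnamed, 107 ± 37.2 CPM in the basal-like, 27.1 ± 22.4 CPM in the committed and 9.52 ± 12.2 CPM in the upper follicle-like wells. In each of the 5 mice *Postn* was higher in the lower follicle-like than in the unnamed wells.

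*Ctgf* and *Angptl7* shared the first places of that order. *Ctgf* was at 825 ± 334 CPM in the lower follicle-like and 279 ± 84.5 CPM in the unnamed wells, and *Angptl7* at 686 ± 201 and 134 ± 115 CPM. Both were at or below 10.1 CPM on average in every other named class. *Col8a2* stood at 266 ± 108 and 60.2 ± 39.1 CPM in the same pair of classes and at 0.629 ± 1.41 CPM in basal-like wells. *Col6a1* went with the lower follicle-like wells (347 ± 74.0 CPM) and not with the unnamed wells (9.56 ± 13.6 CPM), which did not differ from the basal-like wells (20.4 ± 12.6 CPM) by more than the spread. *Col18a1* was the collagen with the most signal outside the follicle, at 233 ± 69.0 CPM in lower follicle-like, 60.02 ± 44.5 CPM in basal-like and 39.6 ± 10.7 CPM in unnamed wells. *Smoc1* was at 60.7 ± 47.3 CPM in lower follicle-like wells, with 51.0, 47.7, 130 and 74.6 CPM in 4 mice and 0 in untraced replicate 2, and its mean was at most 2.61 CPM elsewhere.

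*Aspn* and *Abi3bp* had their highest mean level outside the lower follicle-like wells. *Aspn* was at 428 ± 429 CPM in the unnamed wells, from 32.0 to 1058 CPM, and at 84.0 ± 42.3 CPM in the lower follicle-like wells. It was higher in the unnamed wells in 4 of 5 mice, all but traced replicate 2, with a mean difference within its SD over mice. The level in the unnamed wells was 312 to 1058 CPM in the 3 untraced mice and 83.8 and 32.0 CPM in the traced mice, and the class differed between these designs. Of its 150 wells 76 were traced wells placed in it by likeness, and 59 of those fell, when traced wells were clustered on their own, in a cluster of 81 wells led by *Dct*, *Vim* and *Sostdc1*, genes outside the 10 leading genes of every untraced cluster. Melanocyte markers (6 listed, *Dct* among them) were found in 2 of these 81 wells and *Krt5* in 80. By well, *Aspn* went with some lower follicle markers and not with others. *Lhx2* was found in 61 of its 76 wells (80.3%) and *Sox9* in 64 (84.2%), against 27.1% and 43.8% of all kept wells. They were in 94.2% and 86.4% of the lower follicle-like wells. *Lgr5* and *Fgf18*, on the same list, were found in 2 *Aspn* wells each (2.63%). They were in 32.0% and 20.4% of the lower follicle-like and 6.85% and 4.51% of all kept wells. Any upper follicle marker was found in 62 *Aspn* wells (81.6%), against 56.8% of the lower follicle-like and 60.5% of all kept wells. *Abi3bp* was at 134 ± 105 CPM in the unnamed and 114 ± 60.6 CPM in the upper follicle-like wells, which overlap, and at 14.7 ± 7.10 CPM in the lower follicle-like wells. It was lower in the lower follicle-like than in the unnamed wells in each of 5 mice. The lower follicle-like level of *Abi3bp* did not differ from that of the basal-like (8.19 ± 6.78 CPM) or committed wells (7.82 ± 8.88 CPM) by more than the spread between mice.

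Free RNA carried along in a sort can put a transcript into a well whose cell does not express the gene. In the 110 wells of T cell and Langerhans clusters (median 2028 transcripts), *Cd34* and *Postn* were each found in 4 wells (3.64%), *Col6a1* in 5 (4.55%), *Angptl7* and *Abi3bp* in 2 each (1.82%) and *Ctgf* and *Col8a2* in 1 each (0.909%), and *Aspn*, *Col18a1* and *Smoc1* in 0 of 110, which allows a share of up to 2.73% (3 wells of 110). In the 206 lower follicle-like wells (median 2722 transcripts) the shares were 83.5% for *Cd34*, 82.5% for *Postn*, 57.3% for *Ctgf*, 50.5% for *Angptl7*, 46.6% for *Col8a2*, 50% for *Col6a1*, 39.3% for *Col18a1*, 15.0% for *Smoc1*, 13.6% for *Aspn* and 4.85% for *Abi3bp*. The basal-like wells (median 3382 transcripts) held *Cd34* in 3.31% and *Abi3bp* in 3.64%, which is the level of the immune wells or within its counting error, while *Col18a1* (12.9%) and *Postn* (12.3%) were above it. These limits cover counting error only.

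A transcript of *Cd34* in a well went with most of the other genes. The share of wells with each gene was taken on wells thinned to 1000 transcripts, which left 1105 wells, 167 with and 938 without *Cd34*. *Postn* was found in 71.4%, 95.2%, 77.8% and 79.2% of the *Cd34* wells of the untraced mice and in 64.7% and 84.0% of those of the traced mice, against 6.45%, 26.2%, 7.85%, 13.9%, 7.18% and 6.86% of the wells without *Cd34*, in the same order. The difference was 67.3 percentage points (SD 6.51, n = 6 mice) and the ranges did not overlap. For *Ctgf* the shares were 47.4% ± 7.73 with and 4.23% ± 3.13 without *Cd34* (SD, n = 6), and for *Angptl7* 38.6% ± 14.4 and 3.00% ± 2.08. Each was higher with *Cd34* in 6 of 6 mice.

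The collagens and *Aspn* also went with *Cd34*, over a wider range. *Col8a2* was found in 24.8% ± 5.02 of wells with and 1.54% ± 1.69 of wells without *Cd34*, and *Col18a1* in 20.5% ± 6.59 and 3.00% ± 1.05, both higher in 6 of 6 mice. Without thinning, which leaves each well more transcripts, these differences grew from 23.3 to 43.7 percentage points for *Col8a2* and from 17.5 to 28.0 for *Col18a1*. *Col6a1* was found in 25.8% ± 15.6 and 2.89% ± 2.29, higher in 5 of 6 mice, and the exception was untraced replicate 1, where 0 of 7 *Cd34* wells held it. *Aspn* was found in 14.2% ± 10.4 and 3.60% ± 4.33, higher in 6 of 6 mice by 2.43 to 25.3 percentage points. *Smoc1* was found in 4.23% ± 4.74 and 0.246% ± 0.406, higher in 4 of 6 mice, with no transcript on the plates of untraced replicates 1 and 2. Its difference of 3.98 percentage points was 7.78 without thinning and 2.53 without traced replicate 1. *Abi3bp* did not go with *Cd34*: it was found in 2 of 167 wells with and 26 of 938 wells without *Cd34*, and both of the former were on the plate of untraced replicate 1. Its mean difference of 2.03 percentage points (SD 11.8) became -2.64 without that plate.

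**Figure D2:**
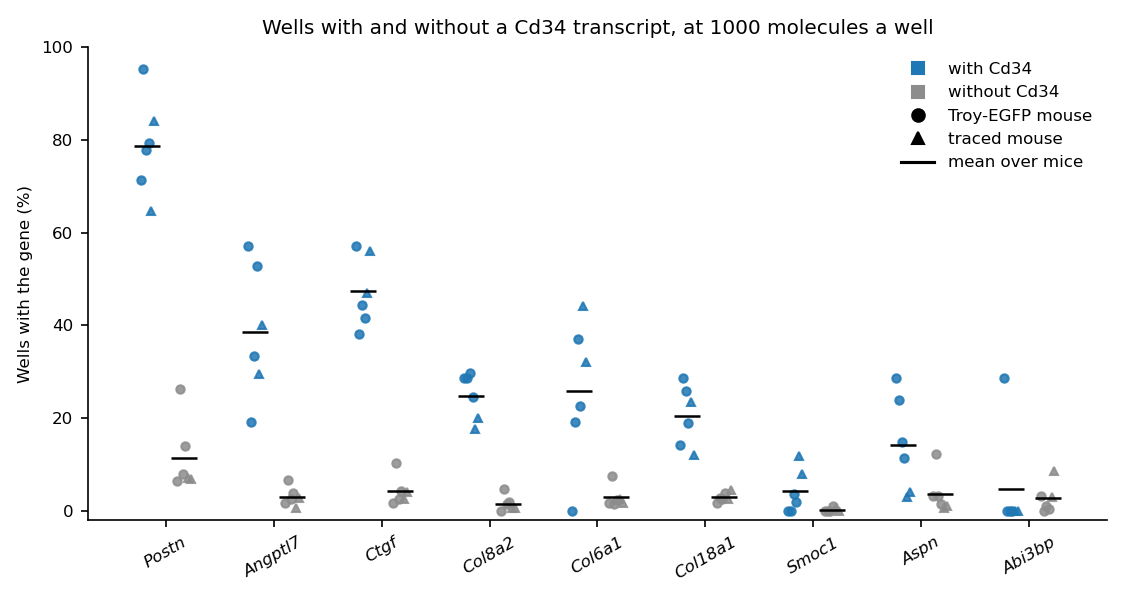
Percent of wells with each gene among wells with (blue) and without (grey) a *Cd34* transcript, after thinning to 1000 transcripts. Points are the 6 mice and bars the mean. Values below are mean ± SD over mice. *Postn* separates fully between the groups, 78.7% ± 10.5 against 11.4% ± 7.75, whereas *Abi3bp* is found in 4.76% ± 11.7 and 2.73% ± 3.16.

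Over all plates, wells with *Cd34* had a median of 2737 transcripts and wells without it 2930. With all transcripts, a *Cd34* well held a median of 4 of the other 9 genes and at most 7. At least 4 of them were found in 117 of 222 *Cd34* wells (52.7%) and in 18 of 887 wells without *Cd34* (2.03%). No other gene of the set was found in 26 of the *Cd34* wells and in 597 of the others.

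Counted well by well with all transcripts, 176 of the 222 *Cd34* wells (79.3%) held *Postn*, 123 (55.4%) *Ctgf*, 108 (48.6%) *Angptl7*, 101 (45.5%) *Col8a2*, 99 (44.6%) *Col6a1* and 84 (37.8%) *Col18a1*. The pairing was tightest from the side of *Col8a2*, since 84.2% of its 120 wells held *Cd34* and 92.5% held *Postn*. *Aspn* shared 66 wells with *Postn* (86.8% of the *Aspn* wells) and 35 with *Cd34* (46.1%), but 12 with *Col6a1* (15.8%) and 2 with *Smoc1*. *Smoc1* shared 24 of its 36 wells with *Cd34* (66.7%) and 19 with *Col6a1* (52.8%), but 7 with *Angptl7* (19.4%). *Abi3bp* shared 20 of its 82 wells with *Postn* (24.4%), 12 with *Cd34* (14.6%), 3 with *Smoc1* and 2 with *Aspn*.

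**Figure D3:**
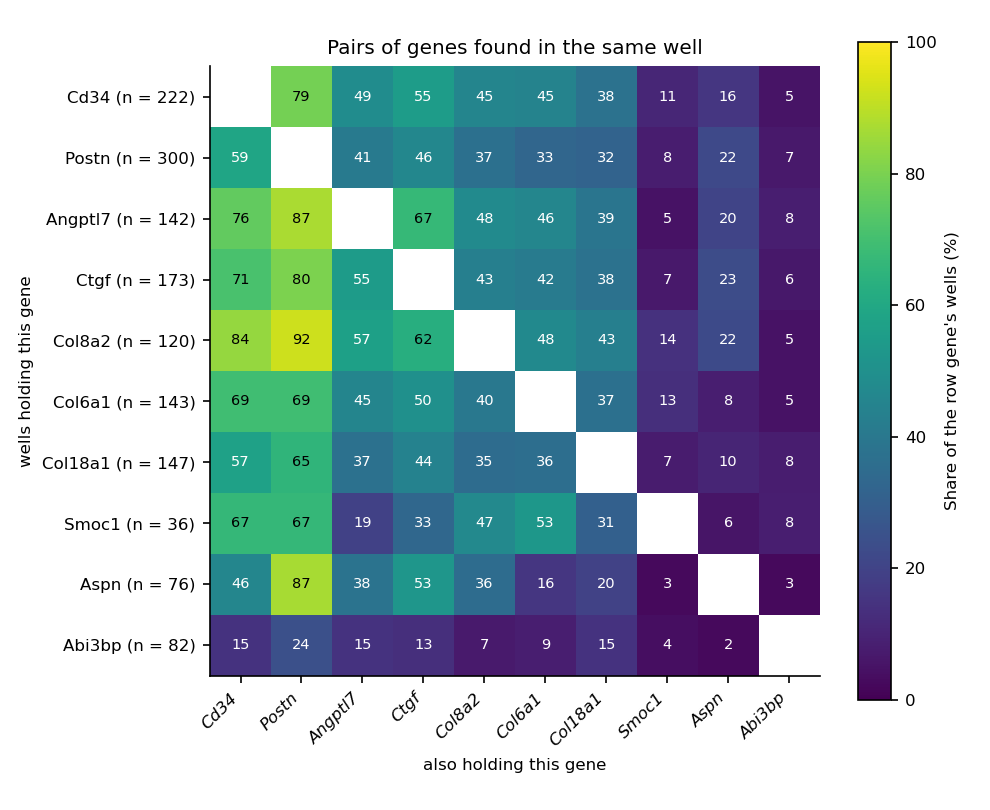
Percent of the wells with the row gene that also held the column gene, over all 1109 wells and all transcripts, with the number of wells of each gene at the left; lighter cells are higher shares. The row of *Col8a2* reaches 92.5% for *Postn* and 84.2% for *Cd34*, and the row of *Abi3bp* has no share above 24.4%.

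The genes whose levels were most like each member across wells were taken by Pearson r of log2(transcripts per 10000 + 1) within a plate, averaged over plates. These r values are a description, since the wells of a plate share its depth and its mix of cells. For *Cd34* they were *Lhx2* (0.75), a LIM homeobox factor of follicle stem cells, *Postn* (0.72), the WNT inhibitor *Sfrp1* (0.65), the Dickkopf family gene *Dkk3* (0.64), and *Angptl7* (0.63). *Lhx2* also led for *Postn* (0.74) and *Col18a1* (0.36), and *Cd34* led for *Angptl7* (0.63), *Ctgf* (0.61), *Col8a2* (0.60) and, over 5 plates, *Col6a1* (0.56). *Lhx2* was found in 193 of the 222 wells with *Cd34* and in 107 of the 887 without.

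The lists of the remaining 3 genes differed. For *Aspn* they were *Sema3e* (0.53), a semaphorin, found in 55 of its 76 wells, *Pthlh* (0.48), which encodes a parathyroid hormone-like peptide, *Fam101b* (0.46), *Postn* (0.42) and *Ank* (0.40). For *Smoc1*, over 3 plates, they were *Igdcc4* (0.42), *Fgf18* (0.40), *Cadm2* (0.37), *Myoc* (0.36) and the keratin *Krt6a* (0.35). *Fgf18*, a growth factor of the resting follicle, was found in 16 of the 36 *Smoc1* wells. *Cadm2* shared 2 wells with *Smoc1*, and its r came from a single plate. For *Abi3bp*, over at most 5 plates, the highest r was 0.29, for *Defb6*, a defensin found in 48 of its 82 wells. The other 4 lay between 0.24 and 0.26. All of these values are weak in counts this sparse. The upper follicle markers *Krt79* and *Gata6* were found in 44 (53.7%) and 26 (31.7%) of the 82 *Abi3bp* wells, against 25.1% and 9.11% of all kept wells. Of the lower follicle list, *Lhx2* was found in 14 (17.1%) and *Sox9* in 49 (59.8%), against 27.1% and 43.8% of all kept wells.

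At a finer clustering (resolution 1.2 in place of 0.8, again without the 10 genes among the genes clustered on), the lower follicle-like wells were 144 led by *S100a4* and 52 led by *Fgf18*, and the unnamed wells were 70 led by *Aspn*, 96 led by *Akr1c18* and 51 led by *Mir6240*. The *Mir6240* wells had *Mid1*, one of the genes by which clusters were removed in the first round, among their 10 leading genes, and are not described further. In the *S100a4* wells, *Cd34* was found in 129 (89.6%), *Postn* in 126 (87.5%), *Ctgf* in 101 (70.1%), *Angptl7* in 95 (66.0%) and *Col8a2* in 69 (47.9%), while *Smoc1* was found in 10 (6.94%). In the *Fgf18* wells, *Postn* was found in 34 (65.4%), *Cd34* in 33 (63.5%), *Col8a2* in 23 (44.2%), and *Col6a1* and *Smoc1* in 21 each (40.4%), while *Ctgf* was found in 9 (17.3%) and *Angptl7* in 2 (3.85%). *Smoc1* was at 183 and 160 CPM in the *Fgf18* wells of traced replicates 1 and 2, the only mice with 10 or more such wells, and at 104 and 50.8 CPM in the *S100a4* wells of the same mice. In the *S100a4* wells of untraced replicates 2, 3 and 4 it was at 0, 0 and 6.50 CPM.

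The wells led by *Aspn* kept *Postn* but had little *Col6a1*. *Postn* was found in 61 of 70 (87.1%), *Aspn* in 43 (61.4%), *Ctgf* in 37 (52.9%), *Cd34* in 29 (41.4%), *Angptl7* in 24 (34.3%) and *Col6a1* in 3 (4.29%). Levels of *Postn*, 3393 ± 1662 CPM against 3409 ± 1377 CPM in the *S100a4* wells (SD, n = 5), differed by less than the spread between mice. *Cd34* was lower in each of the 5 mice (489 ± 235 against 1693 ± 436 CPM), as were *Angptl7* (440 ± 224 against 891 ± 223 CPM) and *Col6a1* (21.0 ± 33.6 against 420 ± 176 CPM). *Aspn*, by which these wells are called, was at 1843, 1367 and 903 CPM in untraced replicates 2 to 4 and 247 and 256 CPM in the traced mice, so that the untraced mice were all above the traced mice. Other leading genes of these wells were *Ank*, the WNT inhibitor *Wif1*, *Sema3e* and *Fst*, which encodes follistatin.

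In the wells led by *Akr1c18*, *Abi3bp* was found in 30 of 96, most of them traced wells, which were placed here by likeness as above. It was found in 1 of 11 and 3 of 18 wells of untraced replicates 3 and 4 and in 6 of 22 and 17 of 36 wells of traced replicates 1 and 2, at 29.7, 109, 139 and 322 CPM. *Postn* was found in 3, 3, 1 and 3 of the same wells, at 208, 157, 69.4 and 53.7 CPM, so that *Postn* had the higher level in these untraced and *Abi3bp* in the traced mice. Over all 96 wells *Postn* was found in 13 (13.5%), *Col18a1* in 9 (9.38%), *Cd34* in 3, and *Aspn*, *Col8a2* and *Smoc1* in 0.

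**Figure D4:**
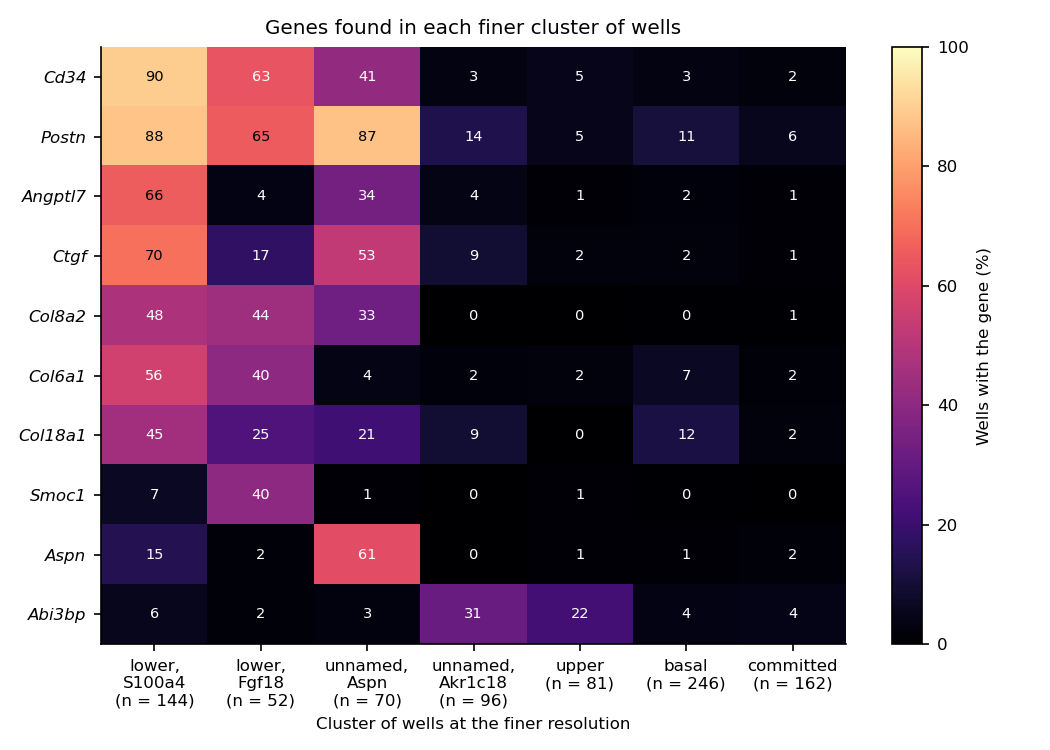
Percent of wells with each of the 10 genes (rows) in 7 finer groups of wells (columns, with the number of wells), all plates and all transcripts; lighter cells are higher shares. The 144 wells led by *S100a4* hold *Cd34* in 89.6%, the 52 led by *Fgf18* hold *Smoc1* in 40.4%, the 70 led by *Aspn* hold *Aspn* in 61.4%, and *Abi3bp* is found in 30 of the 96 wells led by *Akr1c18*.

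The wells were checked against markers of other skin cells that express such matrix genes. The basal keratin *Krt5* was found in 220 of 222 *Cd34* wells, 297 of 300 *Postn* wells, 74 of 76 *Aspn* wells, 36 of 36 *Smoc1* wells and 75 of 82 *Abi3bp* wells. Any of the 5 fibroblast markers present on the plates (of 7 listed) was found in 35 of the 222 *Cd34* wells (15.8%), summing to 77.9 CPM, and in 39 of the 887 wells without *Cd34* (4.40%), summing to 22.9 CPM. Most of the former came from the collagen I chain *Col1a2*, found in 29 of the *Cd34* wells (13.1%) and in 16 of the wells without *Cd34* (1.80%). *Col1a1* was found in 4, *Dcn* and *Pdgfra* in 1 each and *Col3a1* in 0 of the *Cd34* wells, against 3, 7, 7 and 9 of the wells without *Cd34*. The part of these markers in the result was not tested. Without the wells that held any fibroblast marker, 187 *Cd34* wells, 263 *Postn* wells and 114 of 143 *Col6a1* wells remained. Melanocyte markers were found in 0 and endothelial markers in 1 of the *Cd34* wells, against 20 and 8 of the wells without *Cd34*. Pericyte or smooth muscle markers were found in 5 of the *Cd34* wells (2.25%) and in 5 of the wells without *Cd34* (0.564%). No doublet caller was run, since cells were sorted singly into wells.

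Of 37 relatives of the 10 genes (other collagens, CCN, angiopoietin-like, SPARC-family and leucine-rich proteins), 34 were on the plates and 19 were found in at least 20 wells. Among these, 9 were higher in lower follicle-like than in basal-like wells in each of 5 mice and 2 were lower in each. Over all 9985 genes found in 20 wells the shares were 8.26% and 8.47%, and 8 of the 10 followed genes were among the former. The highest of the 9 was *Sparc*, a collagen-binding matricellular protein, at 711 ± 346 against 110 ± 112 CPM. *Col6a2*, the partner chain of *Col6a1*, was at 68.4 ± 55.2 CPM against 0 in all 5 mice. The others were *Angptl2* (140 ± 63.6 against 17.2 ± 6.39 CPM), *Npnt*, which encodes the integrin ligand nephronectin (115 ± 33.3 against 31.8 ± 15.0 CPM), *Thbs1*, which is also on the basal marker list, *Egfl6*, *Fn1*, *Ltbp1* and *Col5a2*. The genes that were lower were *Smoc2*, the paralog of *Smoc1*, at 48.8 ± 29.6 CPM in lower follicle-like and 489 ± 143 CPM in basal-like wells, and the fibril-associated collagen *Col16a1*, at 36.4 ± 11.1 and 117 ± 20.4 CPM. The list was put together with results of these wells known, so its counts are a description.

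In the bulk libraries, which hold 157537 to 453005 counts, most of the genes were near the floor of detection, and *Col6a1* was the member with a change past the test, higher in viable cells than in either sorted population. Fewer cells of a type and less RNA per cell cannot be told apart in these libraries. Counts are given for mouse 1 and then mouse 2. *Postn* had 28 and 66 counts in viable, 35 and 17 in *Troy*-EGFP+ and 17 and 25 in *Troy*-EGFP- cells, or 101 and 150, 93.6 and 77.0, and 126 and 146 CPM. Both *Troy*-EGFP+ libraries were below both *Troy*-EGFP- libraries. Only 4 of the 10 genes, *Postn*, *Col6a1*, *Col18a1* and *Abi3bp*, passed the filter on low counts and could be tested.

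Between *Troy*-EGFP+ and *Troy*-EGFP- cells, 0 of these 4 genes were called at an adjusted p of 0.05 (edgeR quasi-likelihood test, Benjamini-Hochberg over 4653 genes), where 7.05% of all genes tested were called. DESeq2 called 0 of them as well, and 1 had an unadjusted p under 0.05. Counts of *Abi3bp* were 4 and 1 in the *Troy*-EGFP+ libraries against 4 and 12 in the *Troy*-EGFP- libraries. Its log2 fold change was -2.58 (SE 0.838, edgeR adjusted p = 0.0715), and -3.36 to -1.75 with a library left out. The log2 fold change was -0.67 for *Postn* (SE 0.362, edgeR adjusted p = 0.328), 1.25 for *Col18a1* (SE 0.706, edgeR adjusted p = 0.354) and 0.87 for *Col6a1* (SE 0.851, edgeR adjusted p = 0.634). With a library left out, these ran from -0.81 to -0.50, from 0.41 to 2.97 and from 0.46 to 1.30, in the same order. As CPM, *Col18a1* was higher in *Troy*-EGFP+ than in *Troy*-EGFP- cells within each mouse, 58.9 against 37.2 in mouse 1 and 31.7 against 5.86 in mouse 2, while the populations overlapped between mice. The *Abi3bp* call moved with a single library, the edgeR adjusted p being 0.0150 without *Troy*-EGFP- replicate 1 (the lone *Troy*-EGFP- library then being assumed to vary like the other populations, as in each fit below that leaves out a library), and it was 0.0311 without a filter on low counts.

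*Ctgf*, which was under the filter, had 5 and 6 counts in viable, 0 and 0 in *Troy*-EGFP+ and 3 and 10 in *Troy*-EGFP- cells. With a floor of 3 counts over the group and TMM-scaled library sizes, it was at least 8.44-fold lower in *Troy*-EGFP+ than in *Troy*-EGFP- cells and at least 3.04-fold lower than in viable cells. When the filter was dropped, *Ctgf* was called lower in *Troy*-EGFP+ than in *Troy*-EGFP- cells (edgeR adjusted p = 0.000205). Both mice showed that direction. The Langerhans list (5 of 5 genes counted) summed to 77.6 and 63.4 CPM in *Troy*-EGFP+ and 1093 and 849 CPM in *Troy*-EGFP- cells, with *Cd207* and *Csf1r* at 0 in both *Troy*-EGFP+ libraries. The T cell list (4 of 5 genes) summed to 2.68 and 4.53 against 156 and 58.6 CPM, the fibroblast list (6 of 7 genes) to 5.35 and 18.1 against 89.2 and 87.9 CPM, and the upper follicle list (6 of 6) to 709 and 884 against 7606 and 4100 CPM. The lower follicle list (9 of 10 genes) summed to 8887 and 10346 against 12997 and 14976 CPM. These lists moved the same way as *Ctgf*, and their part in its result was not tested.

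*Col6a1* was the tested gene that changed against viable cells. It had 24 and 40 counts in viable (86.4 and 91.2 CPM), 8 and 3 in *Troy*-EGFP+ (21.4 and 13.6 CPM) and 1 and 2 in *Troy*-EGFP- cells (7.44 and 11.7 CPM), so both viable libraries were above all 4 sorted ones. It was the 1 of 4 called between *Troy*-EGFP- and viable cells, where 1.78% of all genes were called (log2 fold change -3.10, SE 0.629, edgeR adjusted p = 0.0118, and 0.00231 with mouse as a block). It was also the 1 of 4 called between *Troy*-EGFP+ and viable cells, where 0.473% of all genes were called (log2 fold change -2.23, SE 0.450, edgeR adjusted p = 0.0251, and 0.00485 with mouse as a block). These contrasts share the viable libraries. DESeq2 made neither call (adjusted p = 1.00 for *Troy*-EGFP+ cells, none given for *Troy*-EGFP- cells). The second call was lost without either viable or either *Troy*-EGFP+ library, at edgeR adjusted p from 0.155 to 0.449, and the first without viable replicate 1 (0.0601) or 2 (0.177). The fibroblast list summed to 39 and 4 counts in the viable libraries, 2 and 4 in *Troy*-EGFP+ and 12 and 15 in *Troy*-EGFP- cells, and the sums of other lists differed as well. Against viable cells (4562 and 3647 CPM for the upper follicle, 486 and 198 for the Langerhans and 54.0 and 36.5 for the T cell list), *Troy*-EGFP+ cells were lower in these 3 lists, with the sums given above, and *Troy*-EGFP- cells were higher. The interfollicular basal list summed to 19786 and 21727 CPM in viable, 25165 and 24748 in *Troy*-EGFP+ and 12737 and 14262 CPM in *Troy*-EGFP- cells. For the lower follicle list the sums were 10176 and 12989 CPM in viable, 8887 and 10346 in *Troy*-EGFP+ and 12997 and 14976 CPM in *Troy*-EGFP- cells. The part of these lists in the *Col6a1* result was not tested.

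The other genes had too few counts for a test. *Cd34* had 3 and 10 counts in viable, 2 and 0 in *Troy*-EGFP+ and 0 and 0 in *Troy*-EGFP- cells. It was at least 1.85-fold lower in *Troy*-EGFP- than in viable cells, and its ratio of *Troy*-EGFP+ to viable was 0.185 (95% counting interval 0.0203 to 0.819). *Angptl7* had 6 and 7 counts in viable, 0 and 0 in *Troy*-EGFP+ and 1 and 0 in *Troy*-EGFP- cells, at least 3.60-fold lower in *Troy*-EGFP+ than in viable cells. *Aspn* had 7 and 1 counts in viable, 2 and 0 in *Troy*-EGFP+ and 1 and 3 in *Troy*-EGFP- cells. *Col8a2* had 1 and 1 and *Smoc1* 2 and 0 counts in viable cells, and both had 0 counts in the 4 sorted libraries. Differences of these last 3 genes were not detectable at this depth.

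**Figure D5:**
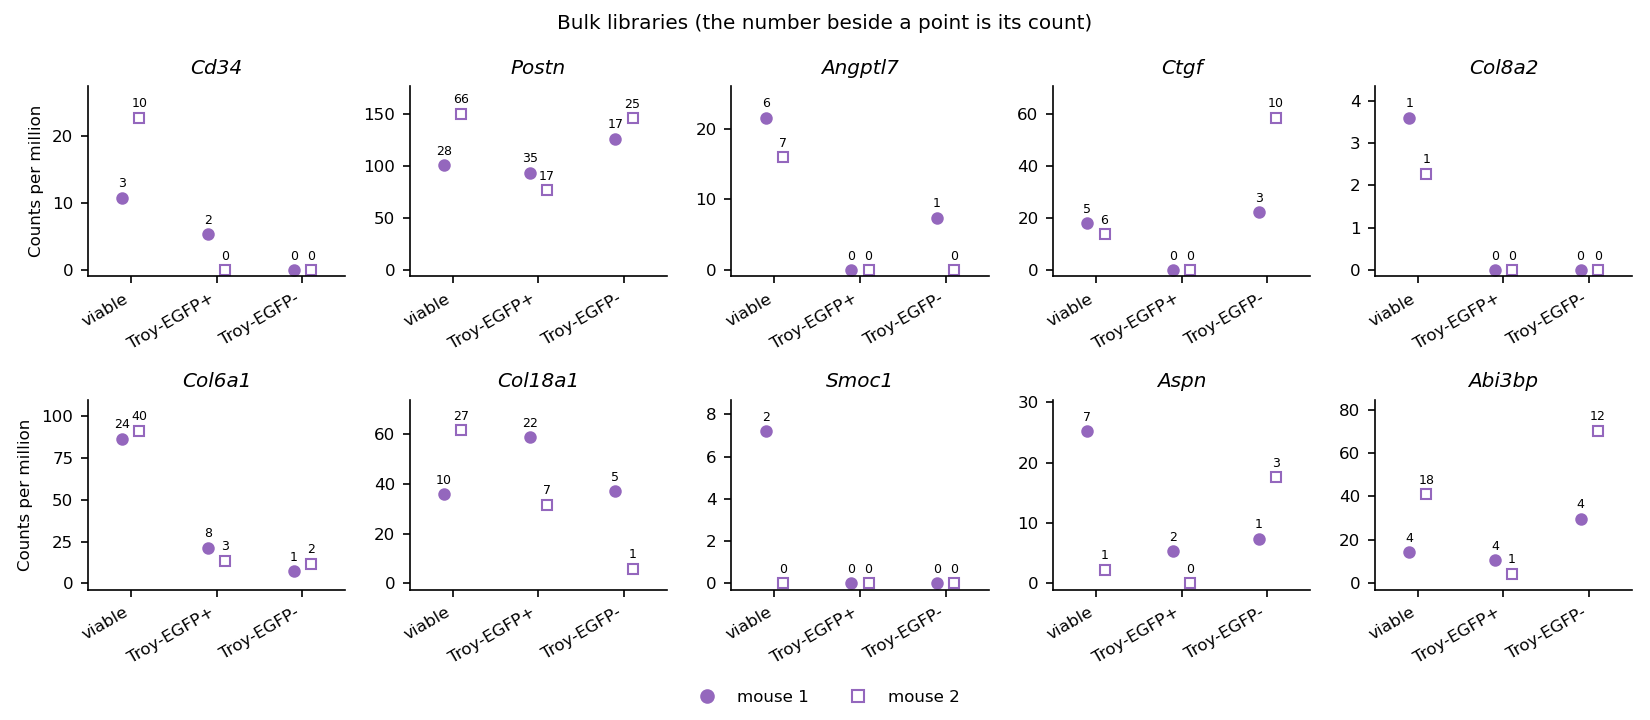
Level of each gene in the 6 bulk libraries (CPM, vertical axes) by sorted population, with the count printed beside each point; circles are mouse 1 and squares mouse 2. *Col6a1* lies at 86.4 and 91.2 CPM in viable cells and at or below 21.4 CPM in the sorted populations, and *Ctgf* has 0 counts in both *Troy*-EGFP+ libraries.

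*Lhx2*, the gene most like *Cd34* across wells, was abundant enough for the bulk test. It had 101 and 102 counts in viable (364 and 233 CPM), 7 and 6 in *Troy*-EGFP+ (18.7 and 27.2 CPM) and 26 and 33 in *Troy*-EGFP- cells (193 CPM in both). It was lower in *Troy*-EGFP+ than in *Troy*-EGFP- cells (log2 fold change -3.11, edgeR adjusted p = 0.000121) and than in viable cells (log2 fold change -3.70, edgeR adjusted p = 2.57e-05). It was not called between *Troy*-EGFP- and viable cells (log2 fold change -0.58, SE 0.319, edgeR adjusted p = 0.451). Other lower follicle markers could be tested. *Sox9* (-1.95, edgeR adjusted p = 0.00114) and *Nfatc1* (-2.38, edgeR adjusted p = 0.00156) were also lower in *Troy*-EGFP+ than in *Troy*-EGFP- cells. *Barx2* (-1.42) and *Krt15* (-0.30) were not called there. Between *Troy*-EGFP- and viable cells *Nfatc1* was higher (1.94, edgeR adjusted p = 0.0140), and *Sox9* (0.68), *Barx2* (1.04) and *Krt15* (0.22) were not called. Of the 37 relatives, 11 could be tested, and between *Troy*-EGFP+ and *Troy*-EGFP- cells 2 were higher and 1 lower by edgeR, 3 in all, where 7.05% of all genes were called. DESeq2 called 2, and 8 of the 11 had an unadjusted p under 0.05, against 923 of all 4653 genes. The anchoring fibril collagen *Col7a1* was counted 59 and 39 times in *Troy*-EGFP+ cells and 4 and 6 times in *Troy*-EGFP- cells (log2 fold change 2.32, SE 0.427, edgeR adjusted p = 0.00152), and *Col16a1* also rose (1.23, SE 0.365, edgeR adjusted p = 0.0454). *Ltbp1*, which binds latent TGF-beta, fell (-1.79, SE 0.422, edgeR adjusted p = 0.0116). The median log2 fold change in this contrast was 0.10 over the 4 tested genes, 0.91 over the 11 relatives and -0.04 over all genes. Between *Troy*-EGFP- and viable cells *Col7a1* was lower (-2.01, edgeR adjusted p = 0.0170), the 1 of 11 called where 1.78% of all genes were, with DESeq2 calling 0 and 3 at an unadjusted p under 0.05, and between *Troy*-EGFP+ and viable cells 0 of the 11 were called by edgeR (0.473% of all genes) and 0 by DESeq2, with 1 at an unadjusted p under 0.05.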

How the data were processed

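CEL-Seq2 libraries were made from sorted bulk cells of 2 mice and SORT-seq libraries from single cells of 6 mice, on 1 plate of 384 wells each. Per the submitters' processing notes, reads were mapped with BWA 0.6.2-r126, builds mm10 and GRCm38 being named, and hg19 beside them. For bulk cells the authors deposited raw counts per gene, in whole numbers, and for single cells estimated transcripts per gene and well, that is, molecular barcodes corrected for repeated draws. Transcripts are counted at 3′ ends and do not scale with length. No coordinate of the reads was used.

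Bulk counts were tested with the quasi-likelihood test of edgeR 4.0.16 (R 4.3.3), after filterByExpr and TMM scaling, with Benjamini-Hochberg adjustment over all genes and a threshold of 0.05, with all 6 libraries in a fit of 3 population means. DESeq2 1.42.0 was an alternative. The populations of a number are cells of 1 mouse, so the numbers pair them, although same-mouse deviations correlated only by r of 0.057 to 0.0977. P-values measure the spread between 2 mice. On data simulated from these libraries (*Troy*-EGFP+ against *Troy*-EGFP-, 200 of 4261 genes changed by a log2 fold of 2) the test recovered 82.4% of the changed genes it tested, with 6.10% of calls false.

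Wells of the 4 *Troy*-EGFP mice were clustered with Seurat 5.3.0 (sctransform 0.4.2, 20 components, resolution 0.8), wells of traced mice were projected onto them, and levels were summed per class and mouse with at least 10 wells. Intervals are exact and cover counting error. The genes named are the 10 members, the 5 genes most like each (found in at least 20 wells), relatives that passed the bulk test, and markers. *Sparc*, *Col6a2*, *Angptl2*, *Npnt*, *Smoc2* and the other relatives named for single cells were chosen after their values were seen. Members, lists and tests were chosen with earlier results of these data known, and the rule for naming clusters was set after clusters had been seen.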

Additional observations from a re-analysis of the deposited data

Results flagged for a closer look

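Wells under the minimum of 1000 transcripts were outside the comparisons and still held some of the genes. Of 1195 such wells, with a median of 153 transcripts, 69 held *Cd34* (5.77%), 125 held *Postn* (10.5%) and 40 held both. Among the 110 kept wells of T cell and Langerhans clusters, each gene was found in 3.64%, at a higher median of 2028 transcripts, so the shares were not compared further. Among the 10 genes on the 4 plates of *Troy*-EGFP mice, no plate stood apart from the other 3 in level by Dixon's criterion.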

How the results depend on the processing

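Of 205 bulk values under the alternatives, 159 kept their direction and side of the threshold, 31 counts moved, 7 calls were lost, 2 were gained and 6 values changed sign. Of 270 single-cell values, 252 moved by less than the spread, 14 moved more and 4 changed sign. Members called between *Troy*-EGFP+ and *Troy*-EGFP- cells numbered 0 in the report and 2 with no filter on low counts (*Abi3bp* and *Ctgf*), and 0 to 2 when a library was left out. Against viable cells the 1 call became 0 with DESeq2 for both sorted populations (for *Troy*-EGFP- cells DESeq2 gave *Col6a1* no adjusted p) and ran from 0 to 1 when a library was left out. With mouse as replicate block the members called stayed at 0, 1 and 1, while calls over all genes went from 328, 83 and 22 to 468, 163 and 49, and the block changed no other call on the members.

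Over all genes, *Troy*-EGFP+ against *Troy*-EGFP- cells gave 141 calls with DESeq2, 151 with only those libraries in the fit and 131 to 751 with a library left out. *Troy*-EGFP- against viable cells gave 33 with DESeq2, 133 with no filter, 38 with only those libraries and 27 to 464, and *Troy*-EGFP+ against viable cells 10, 43, 66 and 7 to 124. Log2 fold changes that changed sign had no call. *Postn* in *Troy*-EGFP- against viable cells went from 0.12 to -0.060 with no filter, -0.16 without viable replicate 1 and -0.045 without *Troy*-EGFP- replicate 2, and ran to 0.44 with other libraries left out. *Abi3bp* in the same contrast went from 0.81 to -0.0074 without *Troy*-EGFP- replicate 2 (up to 1.80 with other libraries left out). *Col18a1* in *Troy*-EGFP+ against viable cells went from -0.07 to 0.41 without viable replicate 2 and 0.23 without *Troy*-EGFP+ replicate 2 (down to -0.65 with others left out). The *Abi3bp* difference between wells with and without *Cd34* went from 2.03 to -0.84 percentage points at 2000 transcripts, -2.51 with a minimum of 2000, -1.82 with at least 2 transcripts and -2.64 without untraced replicate 1, the range over single mice left out being -2.64 to 4.15. The causes were not tested. The *Col8a2* difference went from 23.3 to 43.7 without thinning, 33.8 at 2000 transcripts, 42.5 with a minimum of 500 and 42.6 with a minimum of 2000, and the *Col18a1* difference from 17.5 to 28.0, 29.5, 27.7 and 36.4, and the *Smoc1* difference from 3.98 to 7.78, 9.05, 7.02 and 12.1, in the same order (2.53 to 4.78 with a mouse left out). Of these settings, no thinning and 2000 transcripts leave more transcripts per well, whereas a minimum of 500 admits shallower wells. With a mouse left out, members found more often with *Cd34* numbered 8 to 9, members highest in lower follicle-like wells 8, and the share of *Cd34* wells with *Postn* 76.8% to 80.9%. In bulk, 6 of the 10 genes were under the filter on low counts.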
